A study of Mus musculus with 8 samples.

Results

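The 6 genes described here encode mouse receptors for the constant (Fc) part of immunoglobulin G (IgG) and the chain that the activating ones signal through: Fcgr1, Fcgr3, Fcgr4, Fcgr2b, Fcer1g and Fcgrt. They were chosen by name from the 48709 genes of the deposited expression table, together with the 33 of their introns that every deposited intron table lists, out of 204362 such introns. One more of their introns is listed in only 6 of the 8 tables and was not analysed. Polyadenylated RNA was read in 8 libraries of untreated or gene-deleted bone marrow cells: Ly6Chi monocytes with a knockout of Upf2, a core factor of nonsense-mediated decay (2 libraries), and, along the path of monocyte differentiation, the monocyte and dendritic cell progenitor (MDP, 1 library), the common monocyte progenitor (cMoP, labelled cMOP, 2 libraries), Ly6Chi monocytes (2 libraries) and Ly6Clo monocytes (1 library). All groups but the knockout carry a wild-type genotype tag, while the descriptions of the cMoP and Ly6Chi controls read FL_FL, which denotes a floxed allele. The Cre line, the age of the mice and any pooling of animals are not given in the sources used here, and the labels call the material both primary cells from bone marrow, followed here, and a monocytic cell line. The series addresses how intron retention changes along this path.

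Fc gamma receptors bind IgG on particles and immune complexes and let monocytes, macrophages and neutrophils take these up. In the mouse the activating receptors, encoded by Fcgr1 (high affinity for IgG), Fcgr3 and Fcgr4, signal through the gamma chain encoded by Fcer1g, whose tyrosine motif recruits the kinase Syk, whereas the inhibitory receptor encoded by Fcgr2b carries an inhibitory motif in its own tail and recruits the lipid phosphatase SHIP1, encoded by Inpp5d. Fcgrt encodes the heavy chain of the neonatal Fc receptor, which pairs with beta-2 microglobulin (B2m), binds IgG in acidic endosomes and returns it to the cell surface.

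Fcgr2b (ENSMUSG00000026656, chr1:170958617-170976547, minus strand), Fcgr4 (ENSMUSG00000059089, chr1:171018920-171029761, plus strand), Fcgr3 (ENSMUSG00000059498, chr1:171051174-171064935, minus strand) and Fcer1g (ENSMUSG00000058715, chr1:171229572-171234365, minus strand) lie within 275.7 kb of one another in GRCm38. Fcgr1 (ENSMUSG00000015947, chr3:96282909-96293969) and Fcgrt (ENSMUSG00000003420, chr7:45092990-45103851) lie on the minus strands of other chromosomes. The sequences below are shown because transcripts of these genes either hold or lack them. They come from GENCODE M21 transcripts and are written 5′ to 3′ with the optional piece in capitals and 20 bases of the neighbouring exons on each side. The alternative exon of Fcgr2b (chr1:170963325-170963465) has 141 bases of coding sequence and adds 47 codons to the cytoplasmic tail.
Fcgr2b with the exon: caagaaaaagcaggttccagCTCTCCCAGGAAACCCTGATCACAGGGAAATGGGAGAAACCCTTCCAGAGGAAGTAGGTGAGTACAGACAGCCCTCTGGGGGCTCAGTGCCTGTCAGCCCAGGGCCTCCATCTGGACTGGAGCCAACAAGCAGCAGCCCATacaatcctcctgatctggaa
Fcgr2b without the exon: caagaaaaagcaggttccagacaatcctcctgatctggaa
Fcgr3 has a pair of acceptor sites 3 bases apart (chr1:171057946-171057948).
Fcgr3 longer form: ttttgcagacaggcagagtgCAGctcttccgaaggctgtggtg
Fcgr3 shorter form: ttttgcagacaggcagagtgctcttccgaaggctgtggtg
Fcgrt has a pair of donor sites 12 bases apart (chr7:45102402-45102413).
Fcgrt longer form: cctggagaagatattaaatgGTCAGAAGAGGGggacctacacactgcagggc
Fcgrt shorter form: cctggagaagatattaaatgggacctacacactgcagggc

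Fcgr2b and Fcgr3 are near copies in the part outside the cell. The exons for their first immunoglobulin domain are identical at 94.5% of 255 bases and those for their second at 98.0%, with identical runs of up to 102 and 113 bases. Fcgr4 is less alike, at 61.6% and 55.7% identity with the same exons of Fcgr2b. Of the stretches of 100 bases in the main Fcgr3 transcript, 3.53% also occur in Fcgr2b, and of those in the main Fcgr2b transcript 3.54% occur in other genes, Fcgr3 among them, while the other 4 genes share none. The levels of Fcgr2b and Fcgr3 are uncertain to the extent that reads from these stretches were split between them.

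The libraries had similar depth, with 28726135 to 37591021 spliced reads over the listed introns, and the expression values are TPM, a relative transcript abundance corrected for transcript length. Ly6c2, the gene of the Ly6C surface protein, was at 4472 and 4817 TPM in the knockout, 184 TPM in MDP, 4875 and 3518 TPM in cMoP, 3439 and 4057 TPM in Ly6Chi and 62.8 TPM in Ly6Clo, where the Ly6Clo markers Ace (1164 TPM) and Treml4 (659 TPM) were high. Upf2 was at 20.4 and 22.5 TPM in the knockout and 20.2 and 18.2 TPM in Ly6Chi controls, but its first 3 junctions held 25 and 59 reads in the knockout against 173 and 153 in controls. They held 210 reads in MDP, 139 and 71 in cMoP and 144 in Ly6Clo, so the second cMoP library was close to the second knockout library. Reads leaned further to the 3′ end of genes in the knockout (median log2 ratio of last to first junction over 6741 genes 1.63 and 1.27) and cMoP (1.29 and 1.68) than in MDP (0.97), Ly6Chi (1.01 and 1.03) and Ly6Clo (0.93). Nothing in the labels says that libraries of a group came from separate mice, so each p-value reflects the spread among these libraries alone, which may be technical. The single MDP and Ly6Clo libraries take their spread from the replicated groups.

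All 6 genes were higher in Ly6Chi than in cMoP, and the gene with the largest change was Fcgr3 in cMoP against MDP, Fcgr1 in Ly6Chi against cMoP and Fcgr4 in Ly6Clo against Ly6Chi. In cMoP against MDP, 1 of the 6 passed the test, Fcgr3, which was higher, where 3.87% of the 13126 genes tested passed and 1.35% were higher. In Ly6Chi against cMoP all 6 passed, where 55.5% of genes passed and 32.3% were higher. In Ly6Clo against Ly6Chi, Fcgr4 and Fcgr2b were higher, 2 of 6, where 13% of genes passed and 5.9% were higher. In Upf2 knockout against control Ly6Chi monocytes 0 of 6 passed, where 0.00762% of genes did. A call is a Benjamini-Hochberg adjusted p under 0.05 over all genes tested in a limma fit to log2(TPM + 1), a scale that understates changes of genes near 0. Log2 changes of expression below are relative to the median gene, which itself moved by -0.28, 0.19, 0.04 and -0.12 in these 4 comparisons. The adjusted p beside each is that of the change before this shift, which is the printed change plus the move of the median gene. When libraries were centred on the median gene before the fit, so that the shifted change itself was tested, 2, 6, 3 and 0 of the 6 passed, with Fcgr2b added in cMoP against MDP and Fcgrt in Ly6Clo against Ly6Chi. When genes with low values were also tested, 0, 1 (Fcgr1), 1 (Fcgr4) and 0 of the 6 passed. Calls over all genes also moved without this filter, as given below. The share of all genes that passed after centring is not given here.

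**Figure D1:**
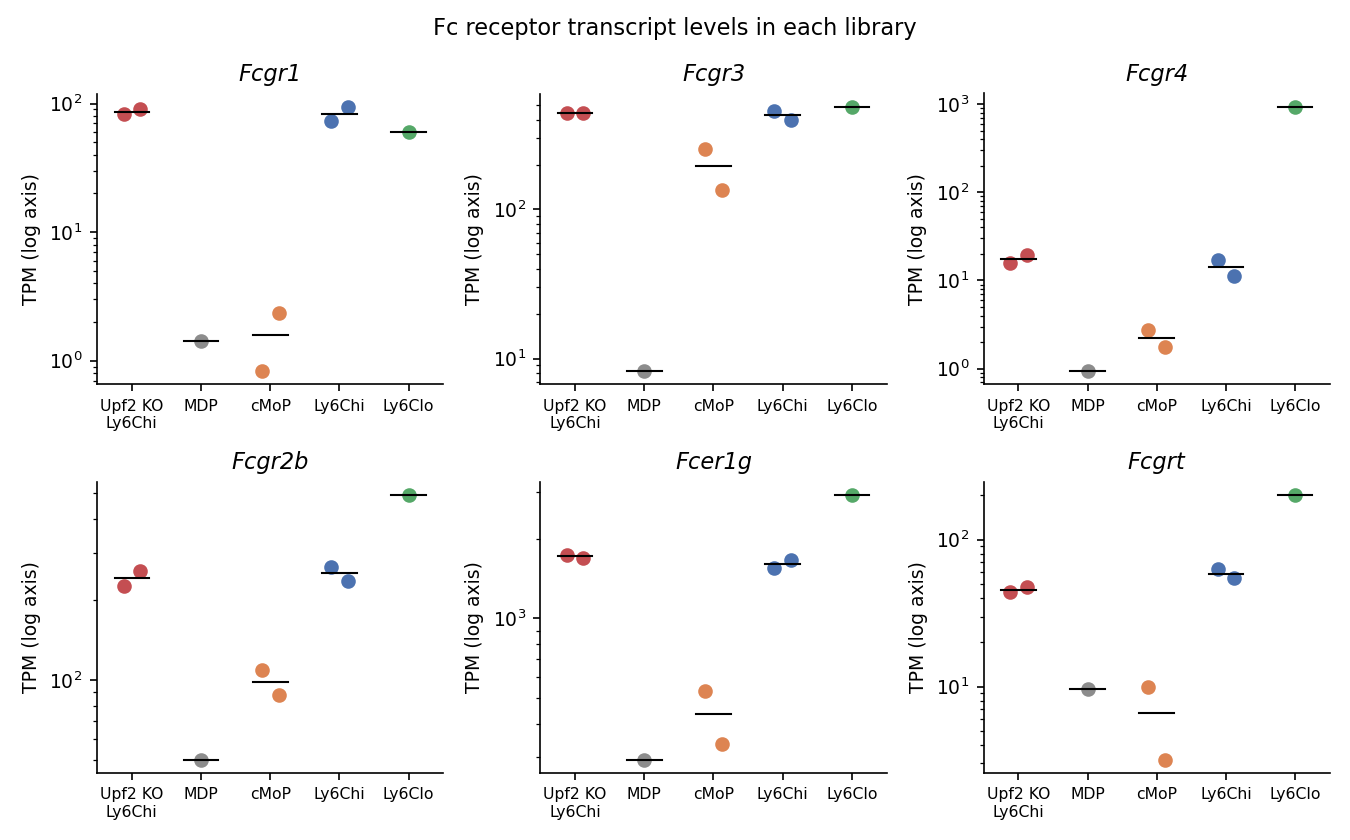
TPM of each gene (vertical log axis) by group, with a point for each library and a line at the group mean. Fcgr3 is at 256 and 136 TPM in cMoP against 8.25 TPM in MDP, Fcgr1 is at 2.35 TPM or less in both progenitors, and Fcgr4 reaches 933 TPM in Ly6Clo.

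Of the activating receptor genes, Fcgr3, whose product binds immune complexes with low affinity, was the one gene of the 6 that passed in cMoP against MDP. It was at 256 and 136 TPM in cMoP against 8.25 TPM in MDP. Both cMoP libraries lay far above the MDP library, with a ratio of means of 23.7 and a log2 change of 4.63 (SE 0.35, limma adjusted p = 0.00546). The call was lost when only these groups entered the fit (limma adjusted p = 0.125). In Ly6Chi, Fcgr3 was at 459 and 398 TPM, above both cMoP libraries (log2 change 1.00, SE 0.29, limma adjusted p = 0.0167), a call lost without the first (limma adjusted p = 0.0919) or the second Ly6Chi library (0.0599). The Ly6Clo library held 489 TPM, close to Ly6Chi (log2 change 0.16, SE 0.35, limma adjusted p = 0.769).

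Fcgr1, the gene of the high-affinity receptor, rose at the Ly6Chi stage. It was at 0.83 and 2.35 TPM in cMoP, on either side of the 1.42 TPM in MDP (log2 change 0.32, SE 0.38, limma adjusted p = 0.964). In Ly6Chi it was at 72.5 and 94.4 TPM. The ratio of the means, 52.5, was the highest of the 6 genes at this step, with a log2 change of 4.89 (SE 0.31, limma adjusted p = 0.000258). The Ly6Clo library held 60.3 TPM, below both Ly6Chi libraries, a difference that did not pass (log2 change -0.49, SE 0.38, limma adjusted p = 0.5).

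Fcgr4, whose product binds IgG2a and IgG2b complexes, stood out in Ly6Clo. It was at 933 TPM there against 17.04 and 11.3 TPM in Ly6Chi, 65.8 times their mean (log2 change 5.93, SE 0.33, limma adjusted p = 0.00049). Its rank among all genes was 167 in Ly6Clo against 6588 and 7609 in Ly6Chi, and its median junction held 4231 reads in Ly6Clo against 75 and 60 in Ly6Chi. In Ly6Chi it was already above cMoP, which held 2.75 and 1.76 TPM (log2 change 2.02, SE 0.27, limma adjusted p = 0.00175). Both cMoP libraries lay above the 0.94 TPM of MDP, a difference that did not pass (log2 change 1.01, SE 0.33, limma adjusted p = 0.212) but did on spliced reads per gene (edgeR adjusted p = 0.0231).

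Markers of other cell types moved with these steps. The 12 neutrophil markers summed to 1601 TPM in MDP (12 of 12 at 1 TPM or more), 454 and 370 TPM in cMoP (11 and 9), 1759 and 2253 TPM in Ly6Chi (11 and 12) and 5268 TPM in Ly6Clo (12). Of the 12, 0 were higher and 2 lower in cMoP against MDP, 10 higher and 0 lower in Ly6Chi against cMoP, and 4 higher and 2 lower (Cd177 and Mmp8) in Ly6Clo against Ly6Chi. In Ly6Chi against cMoP, 4 of 6 tested macrophage markers were also higher, with sums over all 9 of 139 and 133 TPM in Ly6Chi against 15.9 and 5.87 TPM in cMoP. In Ly6Clo they summed to 967 TPM (7 of 9 at 1 TPM or more) against those Ly6Chi sums (5 and 3 of 9). Of these, Adgre1, which monocytes also express, was at 385 TPM in Ly6Clo against 130 and 126 TPM in Ly6Chi, and the complement gene C1qa was at 180 TPM against 1.19 and 0.91 TPM. The 9 dendritic cell markers summed to 400 TPM in Ly6Clo (5 of 9) against 40.4 and 40.1 TPM in Ly6Chi (4 and 3 of 9). The 10 NK and T cell markers summed to 11.1 TPM in Ly6Clo (1 of 10) against 1.65 and 1.48 TPM in Ly6Chi (0 of 10 in both). The 8 basophil and mast cell markers summed to 29.6 TPM in MDP, 70.9 and 43.5 TPM in cMoP, 14.7 and 17.3 TPM in Ly6Chi and 37.9 TPM in Ly6Clo. Of 5 tested, 1 was higher and 0 lower in cMoP against MDP. In Ly6Chi against cMoP 1 was higher and 3 lower, and in Ly6Clo against Ly6Chi 1 was higher and 0 lower. In bulk RNA fewer cells of a type and less RNA per cell cannot be told apart. A sum over markers also does not show that cells of that type were present. The part of other cells in the levels of the 6 genes was not tested.

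The promoters of Fcgr1 and Fcgr4, the genes with the largest changes at the Ly6Chi and Ly6Clo stages, are shown as the 250 bases before the RefSeq start (GRCm38.p6), written 5′ to 3′ along the gene, with matches to a pair of motifs, searched on both strands, in capitals. TTCNNNGAA, the palindrome bound by STAT factors, is in 7.18% of 27025 promoter windows of this length and in 1 of the 6 here, that of Fcgr1. GAGGAA, a core bound by ETS factors such as PU.1, is in 23.13% of windows and in 3 of the 6, those of Fcgr1, Fcgr3 and Fcgr4, each time on the opposite strand. The matches do not overlap, and a match is a description of letters and not a site.
Fcgr1 promoter, chr3:96293970-96294219, minus strand: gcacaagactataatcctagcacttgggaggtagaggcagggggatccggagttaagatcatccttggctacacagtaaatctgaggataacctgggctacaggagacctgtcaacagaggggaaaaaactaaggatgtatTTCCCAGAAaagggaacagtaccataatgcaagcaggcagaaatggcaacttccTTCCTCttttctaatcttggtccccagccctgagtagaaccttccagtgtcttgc
Fcgr4 promoter, chr1:171018676-171018925, plus strand: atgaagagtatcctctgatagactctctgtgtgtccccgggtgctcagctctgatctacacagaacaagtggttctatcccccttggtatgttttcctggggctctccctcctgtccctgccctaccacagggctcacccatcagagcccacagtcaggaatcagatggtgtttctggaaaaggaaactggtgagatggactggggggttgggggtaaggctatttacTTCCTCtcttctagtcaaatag

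Fcgr2b, the gene of the inhibitory receptor, was the IgG receptor gene with the highest level in MDP. It was at 109 and 88.0 TPM in cMoP against 50.3 TPM in MDP. Both cMoP libraries were higher, by a log2 change of 1.23, or 0.95 before the shift. The unshifted change missed the threshold (SE 0.19, limma adjusted p = 0.0561), and the difference passed after median centring (limma adjusted p = 0.0111) and on spliced reads per gene (edgeR adjusted p = 0.0112). In Ly6Chi it was at 266 and 235 TPM, above both cMoP libraries (log2 change 1.15, SE 0.15, limma adjusted p = 0.00149). In Ly6Clo it was higher again, at 492 TPM (log2 change 0.94, SE 0.19, limma adjusted p = 0.025). That call was lost without the first or second Ly6Chi library (limma adjusted p = 0.102 and 0.148) and without either knockout library (0.0646 and 0.064), which share the estimate of spread.

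Fcer1g, the signalling chain, had the highest TPM of the 6 genes in every library. It was at 533 and 336 TPM in cMoP against 293 TPM in MDP, a difference that did not pass (log2 change 0.81, SE 0.27, limma adjusted p = 0.247). In Ly6Chi it was at 1553 and 1660 TPM (log2 change 1.73, SE 0.22, limma adjusted p = 0.00147). The Ly6Clo library held 2920 TPM, above both Ly6Chi libraries, without passing in limma (log2 change 0.83, SE 0.27, limma adjusted p = 0.0954), whereas spliced reads per gene did (edgeR adjusted p = 0.0381). For each TPM of the 3 activating receptor genes together there were 27.6 TPM of Fcer1g in MDP, 2.06 and 2.40 for the cMoP libraries, 2.83 and 3.29 for Ly6Chi and 1.97 for Ly6Clo. The MDP library, in which this ratio was highest, held the 1601 TPM of neutrophil markers given above and 92.8 TPM of dendritic cell markers. The cMoP libraries held 3.56 and 2.25 TPM of dendritic cell markers. The Ly6Clo library, in which the ratio was lowest, held 5268 TPM of neutrophil and 400 TPM of dendritic cell markers. These sums are not split by gene and do not show that neutrophils or dendritic cells were present. The part of other cells in the ratio was not tested.

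Fcgrt, the gene of the neonatal receptor, was low in progenitors and higher in monocytes. It was at 9.97 and 3.19 TPM in cMoP against 9.69 TPM in MDP, so that MDP lay between the cMoP libraries (log2 change -0.37, SE 0.53, limma adjusted p = 0.436). In Ly6Chi it was at 62.7 and 54.4 TPM, 8.90 times the cMoP mean (log2 change 2.94, SE 0.43, limma adjusted p = 0.00262). The Ly6Clo library held 200.7 TPM, 3.43 times the Ly6Chi mean, which missed the threshold in limma (log2 change 1.73, SE 0.53, limma adjusted p = 0.0894) and passed after median centring (limma adjusted p = 0.0379) and on spliced reads per gene (edgeR adjusted p = 0.0345). The SE of Fcgrt was the widest of the 6 genes.

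**Figure D2:**
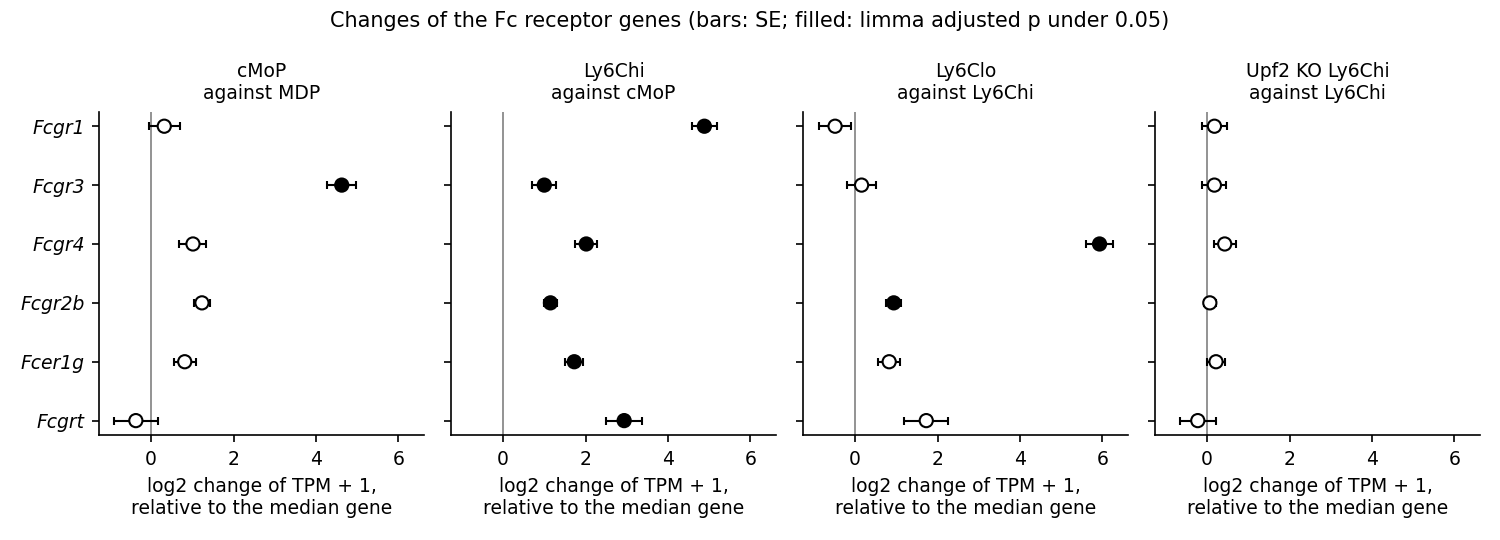
Log2 change of TPM + 1 relative to the median gene (horizontal axis) for each gene in 4 comparisons, with SE bars and filled points where the limma adjusted p of the unshifted change was under 0.05. Points furthest to the right are Fcgr3 in cMoP against MDP (4.63), Fcgr1 in Ly6Chi against cMoP (4.89) and Fcgr4 in Ly6Clo against Ly6Chi (5.93), and no point of the knockout comparison is filled.

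The make-up of the IgG receptor transcripts differed from stage to stage. The summed TPM of Fcgr1, Fcgr3, Fcgr4 and Fcgr2b came to 60.9 for MDP, 368 and 228 for the cMoP libraries, 814 and 739 for Ly6Chi and 1974 for Ly6Clo. Fcgr2b made up 82.6% of this sum in MDP, and Fcgr3 made up 69.4% and 59.7% in cMoP and 56.4% and 53.9% in Ly6Chi. In Ly6Clo the shares were 47.3% for Fcgr4, 24.9% for Fcgr2b, 24.8% for Fcgr3 and 3.05% for Fcgr1. The ratio of the 3 activating genes to Fcgr2b came to 0.211 for MDP, 2.38 and 1.59 for the cMoP libraries, 2.07 and 2.14 for Ly6Chi and 3.01 for Ly6Clo. Activating transcripts outnumbered Fcgr2b in every library but MDP.

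**Figure D3:**
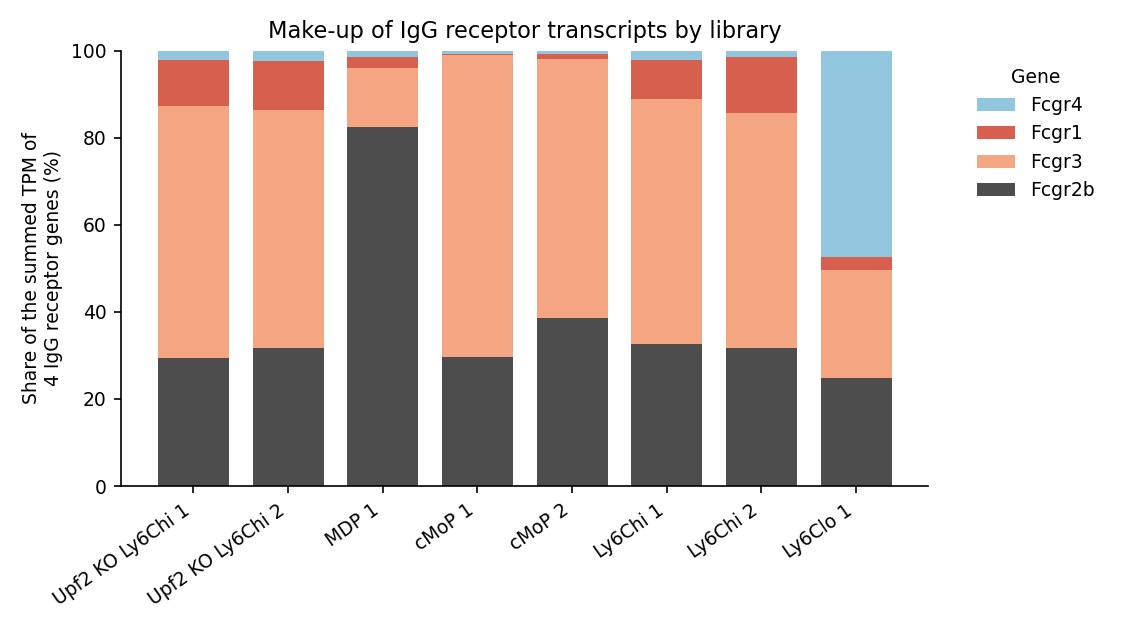
Share of the summed TPM of 4 IgG receptor genes (vertical axis, percent) held by each gene in each library. Fcgr2b holds 82.6% in MDP, Fcgr3 is the largest part in both cMoP, both Ly6Chi and both knockout libraries, and Fcgr4 holds 47.3% in Ly6Clo.

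The form of Fcgr2b also differed, with the alternative exon mostly included in progenitors and mostly skipped in monocytes. The form with the exon is known from B cells, where its longer tail keeps the receptor from being taken up, and the form without it from myeloid cells, where the receptor is taken up with its cargo. Inclusion was the mean of the reads on the junctions at either side of the exon, as a share of that mean plus the reads that skip it. It was 77.2% in MDP (95% Wilson interval 70.1 to 83.1%), from 106 and 138 including and 36 skipping reads. In cMoP it was 66.6% (62.6 to 70.5%) and 62.2% (57.9 to 66.2%), with 184 and 197 skipping reads. In Ly6Chi it was 22.9% (20.5 to 25.5%) and 25.4% (22.97 to 28.0%), with 827 and 845 skipping reads, and in Ly6Clo 19.1% (17.2 to 21.05%), with 1320. No interval of a progenitor library overlapped one of a monocyte library. Intervals cover counting error only, since reads without molecular identifiers are not independent molecules.

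Junction use, the change of a junction relative to the others of its gene, was tested with edgeR over 103331 junctions, a test chosen after the junction reads had been seen. In Ly6Chi against cMoP, 2 of the 30 tested junctions of the 6 genes passed, where 0.189% of all junctions did and 0.0823% were lower. They are those at the 3′ side of the exon (log2 change -1.34, edgeR adjusted p = 0.00566) and at its 5′ side (-1.30, edgeR adjusted p = 0.0103), and the skipping junction missed the threshold (1.17, edgeR adjusted p = 0.0619). Both calls were lost without either Ly6Chi library (edgeR adjusted p = 1), with log2 changes of -1.27 and -1.42 at the 3′ side and -1.24 and -1.36 at the 5′ side. In cMoP against MDP, Ly6Clo against Ly6Chi and the knockout against Ly6Chi, 0 of 30 passed, where 0.0145%, 0.0174% and 0.0029% of junctions did. Of the 30, 2, 0 and 0 had an unadjusted p under 0.05, where 1857, 762 and 2593 of the 103331 junctions did.

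Multiplied by these shares, the level of Fcgr2b with the exon was 38.8 TPM in MDP, 72.7 and 54.7 TPM in cMoP, 60.9 and 59.7 TPM in Ly6Chi and 93.8 TPM in Ly6Clo. The Ly6Chi values lay between the cMoP values. Without the exon it was 11.5 TPM in MDP, 36.4 and 33.3 TPM in cMoP, 205 and 175 TPM in Ly6Chi and 398 TPM in Ly6Clo. The stages did not overlap, but MDP and Ly6Clo had 1 library each. The share of all genes with such an order was not counted, so the order is no result about this form. The 10 B cell markers summed to 54.9 TPM in MDP (5 of 10 at 1 TPM or more), 46.6 and 37.1 TPM in cMoP (3 and 1), 18.5 and 18.7 TPM in Ly6Chi (1 in both) and 65.7 TPM in Ly6Clo (8). Most of each sum was Cd79b, at 43.6 and 35.5 TPM in cMoP, while Ms4a1 was at 0.03 and 0.01 TPM in cMoP and Pax5 at 0.05 TPM in both cMoP libraries. In Ly6Clo, Ms4a1 was at 1.13 TPM and Pax5 at 1.03 TPM. Of 5 tested B cell markers, 0 were higher and 2 lower in cMoP against MDP, and the same in Ly6Chi against cMoP. In Ly6Clo against Ly6Chi 3 were higher and 0 lower. The 7 immunoglobulin chain genes summed to 748 TPM in MDP and 526 and 269 TPM in cMoP. They summed to 586 and 840 TPM in Ly6Chi and 1126 TPM in Ly6Clo. Among them, Ighd was at 9.99 TPM in MDP, 1.41 and 0.24 TPM in cMoP, 0.95 and 1.29 TPM in Ly6Chi and 4.31 TPM in Ly6Clo. The part of B cell RNA in the inclusion was not tested.

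**Figure D4:**
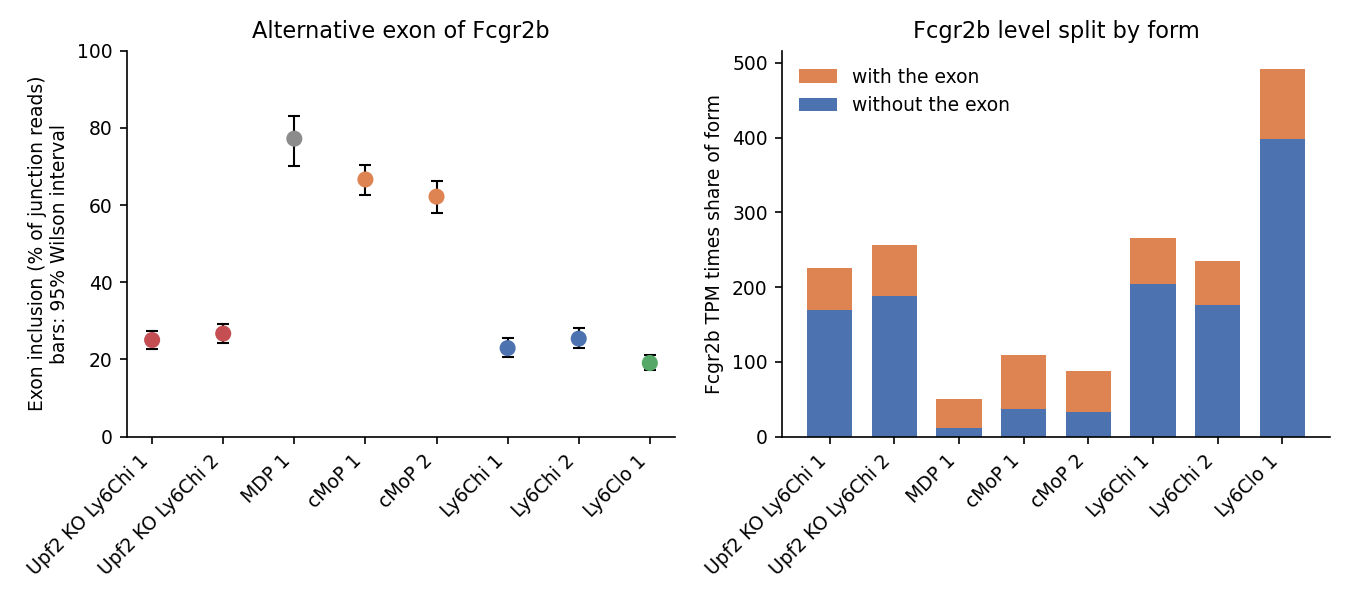
Left, inclusion of the alternative exon of Fcgr2b in each library (percent of junction reads, with 95% Wilson intervals). Right, Fcgr2b TPM split by form in stacked bars: the part with the exon runs from 38.8 to 93.8 TPM over the libraries and the part without it from 11.5 TPM in MDP to 398 TPM in Ly6Clo.

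The small optional pieces of Fcgr3 and Fcgrt showed narrower ranges. The shorter Fcgr3 form took 15.03% and 14.9% of the reads at the shared donor in the knockout, 11.4% and 14.6% in cMoP, 12.6% and 13.8% in Ly6Chi and 15.5% in Ly6Clo. In MDP it took 21.6% of only 37 reads, with a Wilson interval of 11.4 to 37.2% that covers all the other values. The longer Fcgrt form took from 7.41% in MDP (27 reads) to 15.8% in Ly6Clo (709 reads) of the reads at the shared acceptor.

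Retention of introns in these genes was low. The deposited retention ratio runs from 0 to 1, and the 21 introns with at least 20 boundary and spliced reads in every library averaged 0.00114 to 0.0879 over the libraries. They belong to Fcgr2b (8), Fcgrt (5), Fcgr3 (4) and Fcer1g (4), and no intron of Fcgr1 or Fcgr4 passed, as progenitors held few reads of these genes. Some boundary reads can be exon reads of another form. The Fcgr3 intron at the acceptor pair (chr1:171057946-171058585) had 1734 left and 14 right boundary reads in the first knockout library. The Fcgrt intron chr7:45102594-45103002 had 902 left and 22 right boundary reads in Ly6Clo, with 2 reads on its own junction. For these introns the test below cannot tell retention from use of another form. The 3 highest means surround the alternative exon of Fcgr2b: intron 6 (chr1:170961234-170963324) at 0.0879, intron 5 (chr1:170963466-170965701) at 0.0759 and the whole gap between the neighbouring exons at 0.0745. For intron 6 the ratio was 0.0561 and 0.0579 in the knockout, 0.149 for MDP, 0.0816 and 0.0420 for the cMoP libraries, 0.101 and 0.0631 for Ly6Chi and 0.153 for Ly6Clo. For intron 5 it was 0.0256 and 0.0439 in the knockout, 0.157 for MDP, 0.0755 and 0.0252 for the cMoP libraries, 0.0937 and 0.0592 for Ly6Chi and 0.127 for Ly6Clo. For the whole gap it was 0.0347 and 0.0460 in the knockout, 0.135 for MDP, 0.0699 and 0.0292 for the cMoP libraries, 0.0929 and 0.0577 for Ly6Chi and 0.131 for Ly6Clo. For all 3, both knockout libraries lay below both Ly6Chi libraries, and cMoP and Ly6Chi overlapped. The 3 are not separate measures, as the whole gap shares its boundary reads with introns 5 and 6. The share of all introns with the same order was not counted, so the order is no result about these introns.

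Retention was tested as boundary against spliced reads in edgeR over 63820 introns. Of the 21 introns, 0 passed in cMoP against MDP, Ly6Chi against cMoP, Ly6Clo against Ly6Chi and the knockout against Ly6Chi, where 0%, 0.0172%, 0% and 0.141% of all introns did. DESeq2 also called 0 of the 21 in each. In edgeR 5, 1, 2 and 4 of the 21 had an unadjusted p under 0.05, where 5257, 7515, 3277 and 4467 of the 63820 introns did. The 4 in the knockout were all Fcgr2b introns with lower retention, among them intron 5 (log2 change -0.95, edgeR adjusted p = 0.713), where the median intron moved by -0.29. Intron 6 and the whole gap had log2 changes of -0.15 and -0.25 there (edgeR adjusted p = 0.946 and 0.895), and the lowest edgeR adjusted p of the 3 in the other comparisons was 0.564, for the whole gap in Ly6Chi against cMoP (log2 change 0.52). The ratio of intron 6 was lowest in the second cMoP library and the knockout libraries, whose 3′ lean was 1.68, 1.63 and 1.27. The first cMoP library, with a lean of 1.29, had a higher ratio than the second Ly6Chi library, with a lean of 1.03, and the part of the lean in retention was not tested. Calls among the 21 introns depended on which cMoP library was left out. Calls over all introns also varied when 1 library was left out, and both ranges are given below.

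**Figure D5:**
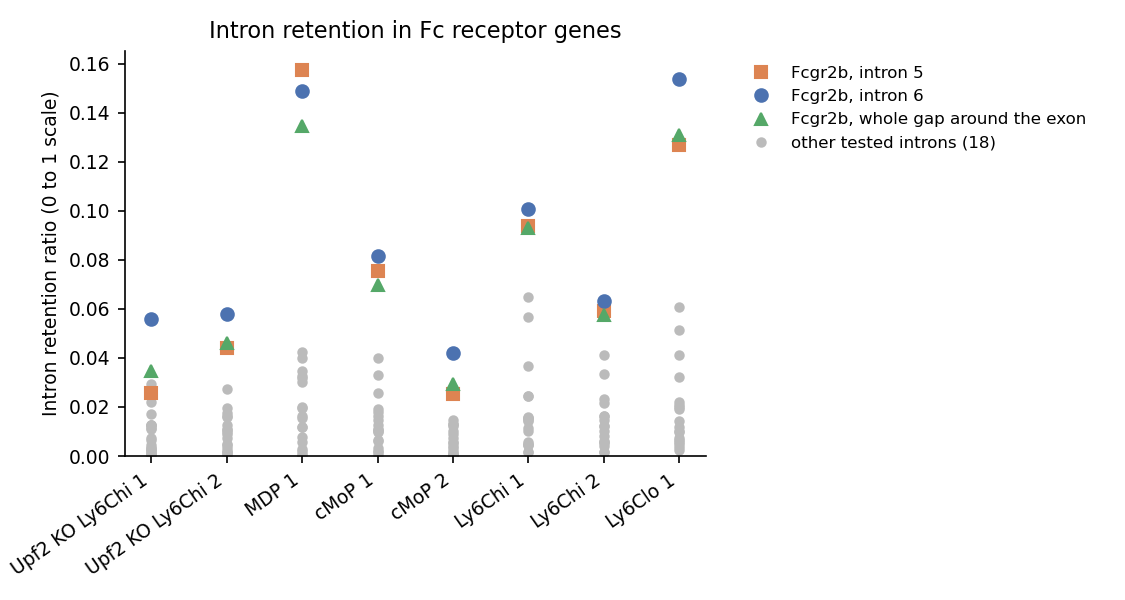
Deposited retention ratio (vertical axis) of the 21 tested introns in each library, with the 3 introns around the alternative exon of Fcgr2b in colour and the other 18 in grey. The coloured points reach 0.157 in MDP and 0.153 in Ly6Clo and lie lowest in the second cMoP library and the knockout libraries.

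With Upf2 knocked out, none of the 6 genes passed the test. Fcgr1 was at 82.3 and 89.9 TPM in the knockout against 72.5 and 94.4 TPM in Ly6Chi controls, and Fcgr3 at 445 and 443 TPM against 459 and 398 TPM. Fcgr4 was at 15.7 and 19.3 TPM in the knockout against 17.04 and 11.3 TPM in controls, and Fcgr2b at 226 and 256 TPM against 266 and 235 TPM. The groups overlapped for these 4 genes. Fcer1g was at 1742 and 1686 TPM in the knockout against 1553 and 1660 TPM in controls, and Fcgrt at 43.8 and 47.6 TPM against 62.7 and 54.4 TPM. For Fcer1g both knockout libraries lay above the controls and for Fcgrt both lay below, by unshifted log2 changes of 0.09 (SE 0.22, limma adjusted p = 0.835) and -0.35 (SE 0.43, limma adjusted p = 0.681), or 0.22 and -0.23 relative to the median gene. The share of all genes whose knockout and control libraries did not overlap was not counted, so these orders are no result about the genes. The lowest limma adjusted p of the 6 was 0.563, for Fcgr4. Of the 6, 0 had an unadjusted p under 0.05, where 1910 of the 13126 genes tested did. The exon of Fcgr2b was included at 25.02% and 26.7% in the knockout against 22.9% and 25.4% in controls, with overlapping intervals.

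Genes that act downstream of the receptors were also mostly higher in Ly6Chi than in cMoP, a step at which 32.3% of all genes were higher. Of 24 tested genes of activating signalling, 18 were higher and 0 lower, with a median log2 change of 0.71. Among them were the Src family kinase genes Fgr (274 TPM in Ly6Chi against 0.485 TPM in cMoP on average, log2 change 7.34, limma adjusted p = 3.11e-05) and Lyn (2.44), and the gene of the kinase Syk (200 against 39.8 TPM, 2.13, limma adjusted p = 0.00122). Of 12 genes of inhibitory signalling 11 were higher and 0 lower (median 1.28), led by the inhibitory receptor genes Pirb (6.06) and Lilrb4a (5.68). Inpp5d averaged 135 TPM in Ly6Chi against 52.9 TPM in cMoP (1.18, limma adjusted p = 0.00657) and the phosphatase gene Ptpn6 564 against 194 TPM (1.35, limma adjusted p = 0.000723).

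Of 12 tested genes of adaptors with tyrosine motifs and their partner receptors, 10 were higher and 0 lower in Ly6Chi against cMoP (median 1.75), and Tyrobp, an adaptor akin to Fcer1g, averaged 3576 against 952 TPM (1.74, limma adjusted p = 0.000736). Of 7 genes of the partner and the cargo handling of the neonatal receptor, 4 were higher, among them B2m (2862 against 1496 TPM, 0.74, limma adjusted p = 0.00969), and 1 was lower, the endosomal Rab4a (-1.08). Of 13 other Fc receptor genes 4 were tested: Trim21, a receptor for antibody inside the cell (1.68), and Fcrl1 (1.07) were higher, and Ms4a2, a chain of the mast cell IgE receptor (-1.28), was lower. Of 7 immunoglobulin chain genes none passed at this step.

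In Ly6Clo against Ly6Chi, where 5.9% of all genes were higher, the same lists held 2 higher genes of 24 (activating), 4 of 12 (inhibitory), 6 of 12 (adaptors and partners, with Pira2 lower, at -2.98), 1 of 7 (neonatal receptor) and 2 of 4 (other Fc receptors). The kinase gene Fyn was at 150 TPM in Ly6Clo against 16.8 TPM in Ly6Chi (log2 change 3.05, limma adjusted p = 0.000834), and Fgr was the other activating gene (1.02). B2m was at 7338 TPM in Ly6Clo against 2862 TPM in Ly6Chi (1.33, limma adjusted p = 0.0178). In cMoP against MDP, where 3.87% of all genes passed, 1 of 12 adaptor and partner genes was higher, Trem2 (3.43). Of 24 activating genes 3 were lower, Fyn (-2.10), Plcg1 (-1.64) and Fgr (-1.54). Of 7 immunoglobulin chain genes 1 was lower, Ighd (-2.38). The inhibitory, neonatal receptor and other Fc receptor lists held no call. In the knockout no gene of these lists passed, beside 0.00762% of all genes.

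The genes whose log2(TPM + 1) followed each receptor gene most closely over the 8 libraries, which share their groups, were taken from 8153 genes with a mean of at least 10 TPM, as a description. For Fcgr1 they were Ifitm3 (Pearson r 0.997), Polb (0.996) and Oas1a (0.994). For Fcgr3 they were Gsr (0.984), Neu1 (0.983) and RP23-218K15.7 (0.973). For Fcgr4 they were Hfe (0.991), Pglyrp1 (0.989) and Acp5 (0.986), and Hfe was at 488 TPM in Ly6Clo against 36.5 and 32.6 TPM in Ly6Chi. Fcgr2b was followed by Clec4b1 (0.989), Ifngr1 (0.988) and Trappc6b (0.988), Fcer1g by Cyp4f18, Mapk3 (both 0.997) and Pqlc1 (0.996), and Fcgrt by Clec10a, Slc46a3 (both 0.998) and Gmip (0.996).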

How the data were processed

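Expression and intron tables of 8 libraries were used as deposited. The submitters' processing notes list FastQC, Trimmomatic, STAR 2.5.2a and RSEM, with the mouse build mm10 beside a human one, and give no order or settings in the sources used here. The expression file is named for FPKM, but each column sums to 1000000 within rounding, so the values deposited by the authors were read as TPM. Each deposited intron table gives whole-number counts of reads across either boundary and of spliced reads. It also gives a deposited signal, the trimmed mean coverage of the intron, and a deposited fraction, the retention ratio, which sets intron coverage against spliced reads but is not exactly recovered from the other columns in every row. The program behind these tables and its formula are not given in the sources used here, and the meanings of the columns were inferred from their values.

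Groups came from the labels. The genes and lists were chosen with earlier results of these data known. Genes at 1 TPM or more in at least 2 libraries were tested on log2(TPM + 1), all 8 libraries in 1 fit, with limma 3.58.1 in R 4.3.3. Introns with at least 20 reads in every library and 20 boundary reads in all were tested with the quasi-likelihood test of edgeR 4.0.16, and junctions with at least 10 reads in 2 libraries with its junction use test. DESeq2 1.42.0 was an alternative. On data simulated for the knockout comparison with 4-fold changes of 200 features, limma recovered 100%, the retention test 76% of those among 8000 introns and the junction test 96%. Outside the changed genes they also called 6, 25 and 11 features. The simulation gave all features of a test the same set spread, so these rates need not hold for the real libraries. Genes named beside the 6 are the 3 with the largest changes among the calls of a list, known partners of the receptors (Syk, Lyn, Inpp5d, Ptpn6, Tyrobp, B2m), and the 3 closest in pattern; others were named after their values were seen. For introns, the 3 with the highest mean ratio are given library by library. Some items that these rules select are not reported here.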

Additional observations from a re-analysis of the deposited data

How the results depend on the processing

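With 2 libraries or 1 in a group, calls near the threshold depend on the settings. Of the 6 genes, cMoP against MDP gave 2 calls with median centring, 3 on spliced reads per gene with edgeR and 4 with DESeq2, 0 without the filter on low values and 0 with only the groups compared, and 1 to 3 when 1 library was left out. Ly6Chi against cMoP gave 1 without the filter. Ly6Clo against Ly6Chi gave 1 without the filter, 4 each with edgeR, DESeq2 and only the groups compared, and 1 to 4 when 1 library was left out. Over all genes, cMoP against MDP gave 300 calls with a pseudocount of 0.1, 1632 without the filter, 258 at a mean of at least 5 TPM, 1131 with DESeq2, 0 with only the groups compared and 106 to 4917 with 1 library left out. Ly6Chi against cMoP gave 1972 without the filter and 3774 to 8794 without 1 library; Ly6Clo against Ly6Chi gave 3293 with only the groups compared and 587 to 3683 without 1 library. The knockout comparison gave 89 without the filter, 102 with DESeq2, and 0 with a pseudocount of 0.1, at a mean of 5 TPM, with only the groups compared and without any 1 library.

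Introns called numbered 12, 338, 42 and 430 in the 4 comparisons when boundary and spliced reads were scaled apart. DESeq2 called 25 in Ly6Chi against cMoP and 3 in Ly6Clo against Ly6Chi. Introns without a warning mark, an alternative chosen after seeing the data, gave 7 in Ly6Chi against cMoP and 1 in the knockout. With 1 library left out the ranges were 0 to 6882, 2 to 10681, 0 to 360 and 0 to 1102, and 0 to 6, 0 to 6, 0 to 1 and 0 to 1 for the introns of the 6 genes. Junctions called, all chosen after seeing the data, fell to 7 at 30 reads in Ly6Clo against Ly6Chi, and ran over 13 to 392, 28 to 1188, 1 to 54 and 0 to 40 with 1 library left out, with 0 to 3 junctions of the 6 genes in Ly6Chi against cMoP. Inclusion of the Fcgr2b exon in Ly6Clo was 17.1% from the 5′ junction alone.

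No call changed direction. Without 1 library, Fcgr1 in cMoP against MDP ran from -0.22 (second cMoP library) to 0.87, and Fcgrt from -0.95 to 0.22 (second cMoP library). In the knockout Fcgr1 ran from -0.039 (first Ly6Chi library) to 0.39, Fcgr2b intron 6 from -0.30 to 0.0036 (first Ly6Chi library) and the skipping junction from -0.0017 (first knockout library) to 0.12. Fcgr2b intron 5 in Ly6Chi against cMoP ran from -0.26 (second cMoP library) to 0.88. With boundary and spliced reads scaled apart, intron 5 in that comparison was at -0.20, and in the knockout intron 6 was at 0.16 and the whole gap at 0.062. The cause was not tested.

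Replicate numbers did not pair the libraries: deviations of same-numbered libraries correlated at 0.063 between cMoP and Ly6Chi, -0.136 between cMoP and the knockout and -0.130 between Ly6Chi and the knockout. With the replicate block, all 6 genes were still called in Ly6Chi against cMoP, among 6331 genes, and 0 genes in the knockout; introns called were 5 and 56, and junctions 128 in Ly6Chi against cMoP, 1 of them of the 6 genes. With the pairing crossed, chosen after seeing the data, the knockout comparison gave 0 genes and 79 introns.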
